A study of Mus musculus with 8 samples.

Results

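The miRNAs mmu-miR-451, mmu-miR-144 and mmu-miR-486, abundant in developing and circulating red blood cells, were followed in mouse brown adipose tissue, the fat that burns fuel to make heat. They were chosen by name, as the non-control probes whose miRNA name in the scanner files was exactly one of these, and are 3 of the 566 mouse miRNAs on the array. All 3 were among the 189 miRNAs detected well enough to test, meaning that a probe stood above background on all arrays of one group or the other.

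Brown fat came from male C57Bl6N mice aged 8 weeks: 3 mice exposed to 8 °C for 24 h (mice 1 to 3) and 3 kept at the room temperature of 21 °C (mice 4 to 6). Total RNA was hybridised to 1-colour Agilent miRNA arrays, 1 array per mouse except mouse 1 and mouse 4, which had 2 each. The 8 arrays lay on 1 slide, with the cold group in one slide row and the room temperature group in the other, so an effect of the slide row and an effect of cold cannot be told apart. No genotype, transgene or drug is named in the labels, and whether blood was flushed from the tissue is not given in the sources used here.

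In red cell precursors, miR-144 and miR-451 are cut from one primary transcript that the erythroid transcription factor GATA1 switches on. miR-451 is unusual in that its precursor is cut by Argonaute2 rather than by Dicer. The mature red cell has no nucleus but keeps these miRNAs, so blood left in a tissue adds them to its RNA. miR-486 comes from an intron of Ank1, the gene of the red cell membrane protein ankyrin, and is also made in heart and skeletal muscle.

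The mature sequences of the pair from one transcript are shown to compare their seeds, bases 2 to 8, which are in capitals and which direct target choice. Sequences are from RefSeq, mouse assembly GRCm38.p6, written 5′ to 3′, and the table held 2 of the 3 members.
mmu-miR-451a: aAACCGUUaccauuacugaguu
mmu-miR-144-3p: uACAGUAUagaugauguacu
The seeds differ, and 0 others among the table's 1679 mature miRNAs shared either one. The array's name mmu-miR-451 was matched to miR-451a and its mmu-miR-144 to the 3p arm.

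The hairpins show how the pair is laid out and where in each precursor the mature miRNA, in capitals, sits.
Mir144: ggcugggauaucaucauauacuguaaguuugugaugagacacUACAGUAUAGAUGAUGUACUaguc
Mir451a: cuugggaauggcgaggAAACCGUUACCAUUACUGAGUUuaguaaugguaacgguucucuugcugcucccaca
Both lie on the plus strand, Mir144 at chr11:78073005-78073070 and Mir451a at chr11:78073170-78073241, with 99 bases between them. The 20 bases of miR-144-3p span positions 43 to 62 of a 66-base hairpin. The 22 bases of miR-451a span positions 17 to 38 of a 72-base hairpin, so they run into the place where the hairpin folds back. The gene table places Mir486 within the span of Ank1, and the hairpin gene Mir3107 overlaps it, so the signal of the miR-486 probes was not assigned to one of these hairpins.

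miR-451 had the highest signal of all 189 miRNAs in 5 of the 6 mice and the second highest in mouse 5. In units of background-subtracted fluorescence, before any scaling, it read 10790.4, 23178 and 19408 in cold mice 1 to 3. The room temperature mice 4 to 6 read 14723, 10710.5 and 21428.5. High and low mice occurred in both groups, which overlapped. The second highest signal (the highest in mouse 5) was miR-126-3p, made by the endothelial cells that line blood vessels. Cold mice 1 to 3 had a miR-451 signal 1.45, 2.08 and 1.57 times that of miR-126-3p, against 1.30, 0.959 and 1.15 times in mice 4 to 6. Probes bind their targets with different strength, so ranks and ratios of signal describe brightness and can be compared between mice, but are not amounts of RNA.

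miR-144, from the same transcript, read 332.9, 689 and 584 units in cold mice 1 to 3, against 353, 244 and 674 in room temperature mice 4 to 6. These values rose and fell over the mice with those of miR-451, and the groups overlapped. It ranked 42nd to 53rd among the 189 miRNAs in cold mice and 55th to 70th in room temperature mice, so the ranges did not overlap. miR-486 read 35.4, 100.5 and 75.5 units in the cold group, against 56.4, 46.1 and 99.3 at room temperature. Its ranks, 89 to 114 in the cold and 105 to 121 at room temperature, overlapped between groups.

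The unscaled signals did not separate the groups. The cold mean over the room temperature mean was 1.14 for miR-451 (exact 2-sided permutation test over mice, p = 0.7, n = 3 per group), 1.26 for miR-144 (exact p = 0.7) and 1.05 for miR-486 (exact p = 0.9). The smallest p that 3 mice against 3 allow is 0.1. The arrays themselves differed in brightness, with a 75th percentile of detected probes between 574 and 1408 units, and signals were therefore divided by this value.

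After this scaling, miR-451 and miR-144 were higher in every cold mouse than in any room temperature mouse. Scaled levels are on the log2 scale, where 1 unit is a doubling and 0 is the array's 75th percentile of detected probes. miR-451 read 4.07, 4.75 and 4.34 in cold mice 1 to 3, and 3.79, 3.58 and 3.87 in room temperature mice 4 to 6. The groups did not overlap, mouse 2 was highest and mouse 5 lowest, and the means were 4.39 ± 0.345 and 3.75 ± 0.152 (SD, n = 3 mice each).

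miR-144 read -0.92, -0.29 and -0.67 in the cold mice and -1.48, -1.83 and -1.06 at room temperature. The groups did not overlap here either, and mouse 2 and mouse 5 again marked the extremes. The means were -0.63 ± 0.320 and -1.46 ± 0.383 (SD, n = 3 each). miR-486 read -4.21, -3.10 and -3.83 in the cold mice and -4.32, -4.36 and -3.84 at room temperature, so cold mouse 1 fell among the room temperature mice. Its means were -3.71 ± 0.564 and -4.18 ± 0.291 (SD, n = 3 each). On scaled levels the exact permutation p was 0.1 for miR-451 and miR-144, the smallest possible, and 0.2 for miR-486.

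**Figure D1:**
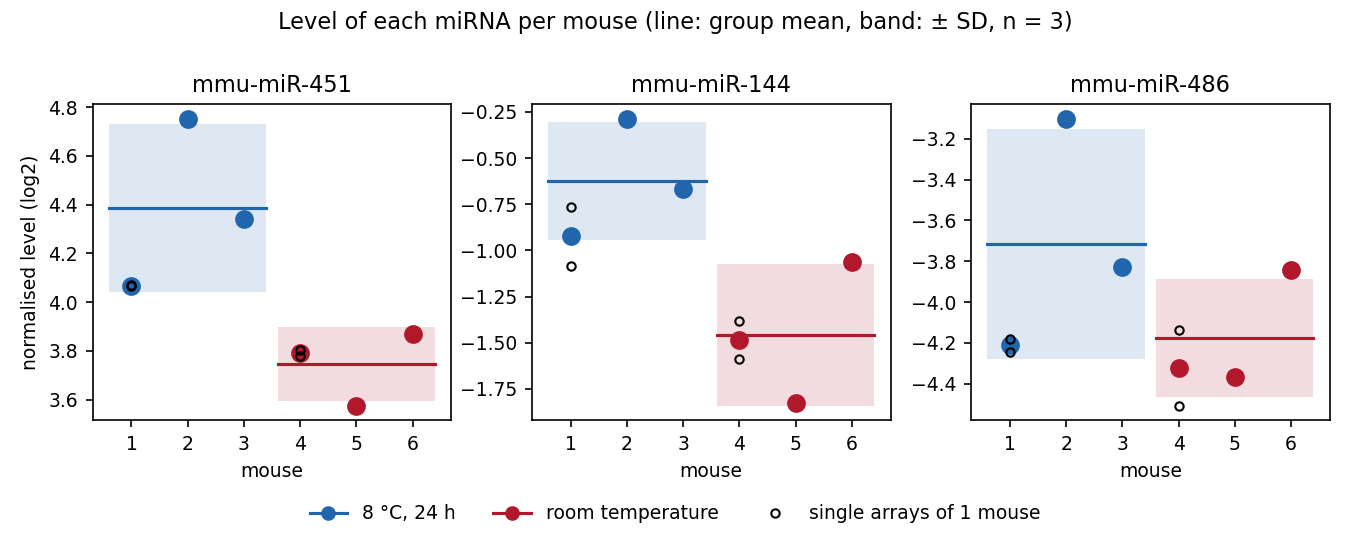
Scaled log2 level (y axis, 0 is the 75th percentile of detected probes of an array) of miR-451, miR-144 and miR-486 in each of the 3 cold and 3 room temperature mice, 1 filled point per mouse, with group means (lines), SD (bands) and, as open circles, the single arrays of mouse 1 and mouse 4. The cold mice lie above all room temperature mice for miR-451 (4.07 to 4.75 against 3.58 to 3.87) and miR-144, and the groups overlap for miR-486.

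None of the members passed the test across all miRNAs. limma, fitted to the 189 miRNAs and adjusted by Benjamini-Hochberg, called 0 of the 3 at a threshold of 0.05. It called 29 miRNAs in all, 16 of them (8.47% of those tested) higher in the cold. At an unadjusted p under 0.05, 2 of the 3 members and 62 of the 189 miRNAs passed. The count of members whose cold mice all lay above the room temperature mice was 2 of 3, against 38 of the 189 miRNAs (20.1%).

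The sizes fell in the order miR-144, miR-451, miR-486. miR-144 differed by 0.83 ± 0.236 (log2, SE), a 1.78-fold higher level in the cold (unadjusted 95% interval 1.22 to 2.61, limma adjusted p = 0.0525). For miR-451 the difference was 0.64 ± 0.193, a ratio of 1.56 (1.14 to 2.13, limma adjusted p = 0.0580). For miR-486 it was 0.46 ± 0.287, a ratio of 1.38 (0.867 to 2.19, limma adjusted p = 0.308). These 3 intervals overlap. Larger upward differences than that of miR-144 were seen in 6 miRNAs, and than that of miR-451 in 15, while the median difference of all 189 was -0.02.

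Leaving out mouse 1 brought miR-451 and miR-144 past the threshold, and leaving out any other single mouse did not. Without mouse 1, whose levels of all members were the lowest of the cold group, the difference was 0.80 for miR-451 (limma adjusted p = 0.0183) and 0.98 for miR-144 (limma adjusted p = 0.0263). For miR-486 the difference ran from 0.15 without mouse 2 to 0.71 without mouse 1, and it passed in neither case. With no scaling the differences were 0.20, 0.39 and 0.02 for miR-451, miR-144 and miR-486, and the median of all miRNAs was -0.46. Relative to that median they were 0.66, 0.85 and 0.48. Dividing an array by 1 value shifts all its miRNAs alike, so these values equal those after scaling by construction and are no separate result. Scaled to 4 positive-control RNAs of the array the differences were 0.32, 0.52 and 0.14, with a median of all of -0.34. With quantile normalisation miR-451 differed by 0.36. The groups overlapped for both miR-451 and miR-144 when unscaled and when scaled to the control RNAs, for miR-451 also with quantile normalisation and with the brightest probe, and for miR-144 also with position correction.

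**Figure D2:**
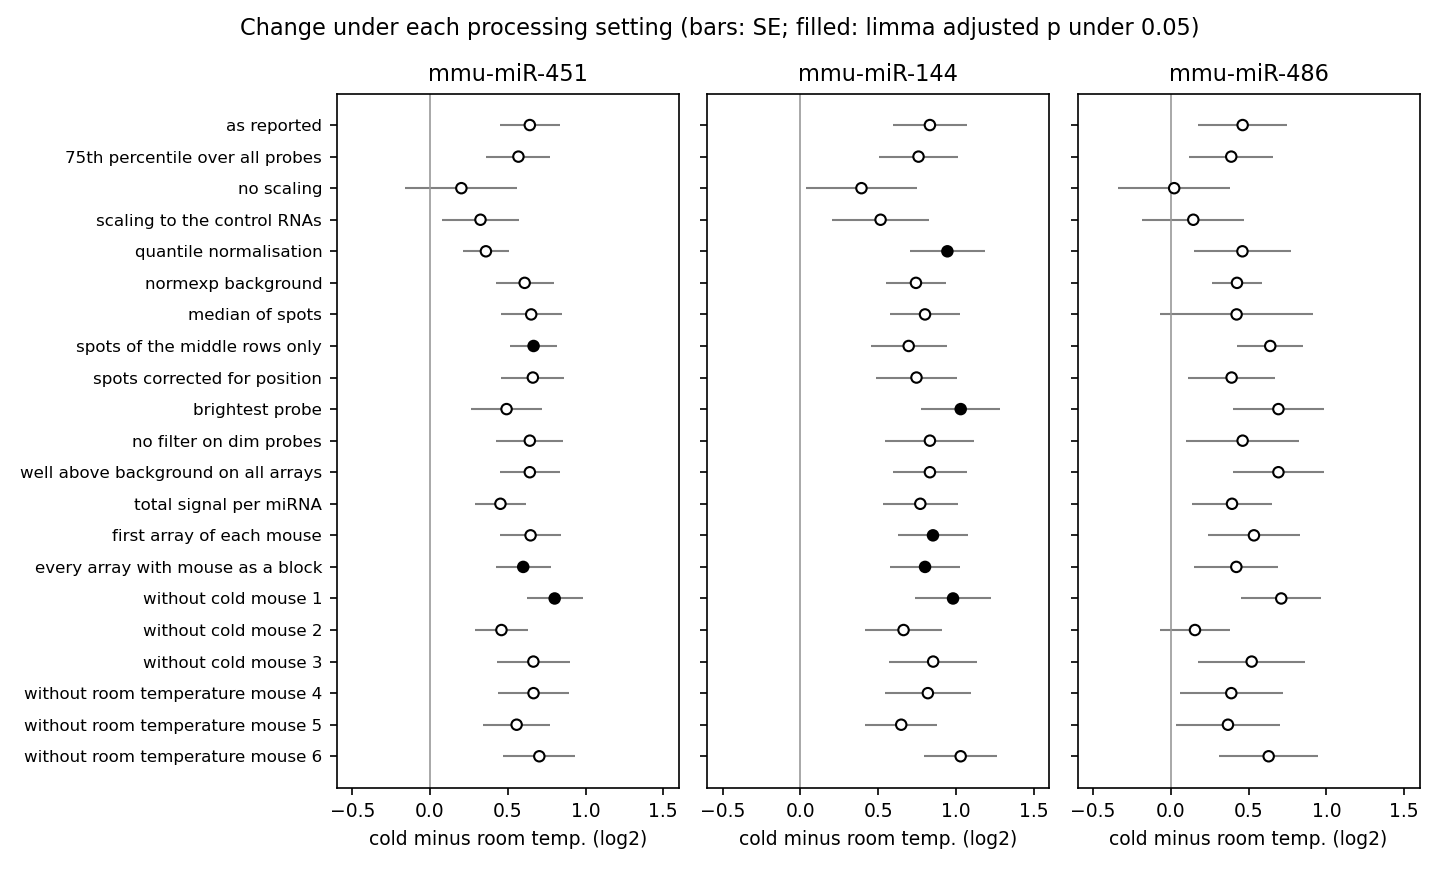
Cold minus room temperature difference (x axis, log2) of each member as reported and under each alternative processing, 1 row per setting, with SE bars and with filled points where the limma adjusted p was under 0.05. Every point lies above 0, between 0.20 and 0.80 for miR-451, 0.39 and 1.03 for miR-144, and 0.02 and 0.71 for miR-486.

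Repeat arrays of one mouse gave nearly the same miR-451 level and a less close one for the dimmer members. For mouse 1 the second array minus the first was -0.0050 for miR-451, -0.32 for miR-144 and -0.06 for miR-486 on the log2 scale. For mouse 4 these were 0.02, -0.20 and 0.37. The median size of this difference over all 189 miRNAs was 0.202 in mouse 1 and 0.14 in mouse 4, so miR-144 in both mice and miR-486 in mouse 4 repeated less closely than the typical miRNA, and miR-451 more closely.

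Each member was read by 2 probes of 10 spots each, and both probes of each member had a higher mean scaled level in the cold. The differences were 0.79 and 0.49 for miR-451, 0.63 and 1.03 for miR-144, and 0.69 and 0.23 for miR-486 (log2). For the second miR-486 probe the groups overlapped, at -4.62, -3.47 and -4.66 in cold mice 1 to 3 against -4.39, -5.01 and -4.06 in mice 4 to 6. Its unscaled mean was lower in the cold, 45.8 against 53.8 units. The second miR-486 probe was above background on 7 of 8 arrays, and the other probes on all 8. The probes of one member did not keep a fixed ratio: the second over the first ran over the mice from 1.27 to 2.18 for miR-451, from 0.884 to 1.35 for miR-144 and from 0.315 to 0.908 for miR-486.

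Spots of one probe also spread widely within an array, with a coefficient of variation of 36.6% to 95.3% for miR-451, 26.0% to 83.5% for miR-144 and 60.0% to 126% for miR-486. Position on the array moved with this spread and with the group. In the first 24 spot rows of the array, the median spot of detected probes was 4.82- to 7.35-fold below its own probe's median on the cold arrays, and near it on the room temperature arrays. In the last 24 rows the room temperature arrays were the dim ones, by 4.26- to 6.90-fold.

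**Figure D3:**
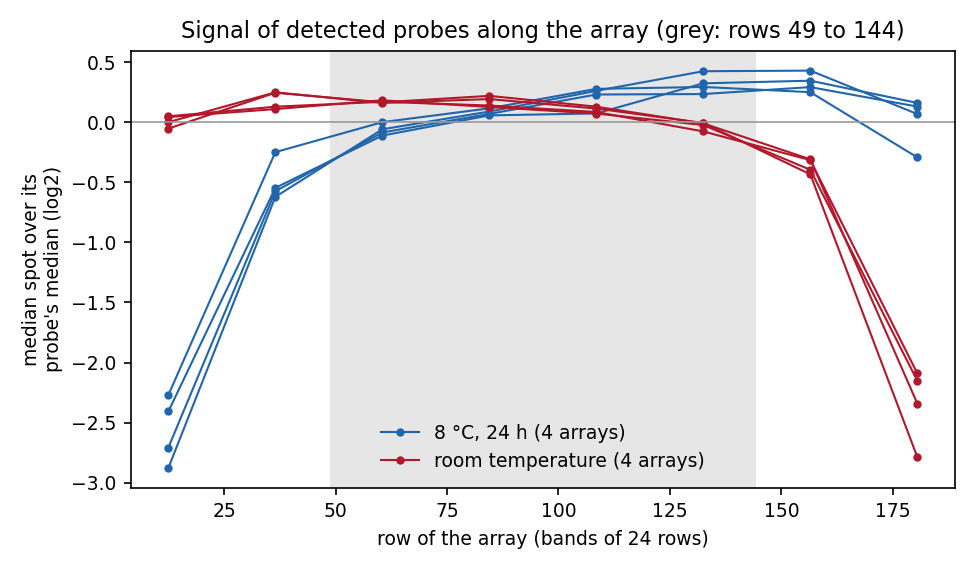
Median log2 signal of the spots of detected probes relative to their own probe's median (y axis) in 8 bands of 24 spot rows (x axis), 1 line per array, coloured by group. Cold arrays drop to between -2.88 and -2.27 in the first band, and room temperature arrays to between -2.79 and -2.09 in the last.

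The members had spots in both zones, in like numbers: 2 in the first 24 rows and 3 in the last 24 for miR-451, 1 and 1 for miR-144, and 4 and 4 for miR-486. Single spots followed the zones. In the first 24 rows, 0 of 2 miR-451 spots, 0 of 1 miR-144 spots and 0 of 4 miR-486 spots were brighter in the cold. In the last 24 rows it was 3 of 3, 1 of 1 and 4 of 4.

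In the middle rows, bands 3 to 6 of 8 bands of 24 rows, away from both zones, 11 of 13 miR-451 spots were brighter in the cold (1.47, the cold mean of the scaled spot signals over the room temperature mean), as were 7 of 10 miR-144 spots (1.44) and 6 of 10 miR-486 spots (1.29). Spots share their array and mouse and are not replicates. With these rows alone, a setting chosen after the data were seen, the differences over mice were 0.67 for miR-451 (limma adjusted p = 0.0372), 0.70 for miR-144 (0.108) and 0.64 for miR-486 (0.0970). With every spot corrected for its position, also chosen afterwards, they were 0.66 (limma adjusted p = 0.0977), 0.75 (0.144) and 0.39 (0.444). The median of all miRNAs was 0.14 with the middle rows and 0.06 with position correction. Relative to that median the differences were 0.53, 0.56 and 0.50 with the middle rows, and 0.60, 0.69 and 0.33 with position correction. As reported they were 0.66, 0.85 and 0.48 relative to the median.

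The members together held 11.4%, 17.4% and 14.1% of the signal summed over all 566 mouse miRNAs in cold mice 1 to 3. In the room temperature mice they held 10.03%, 8.11% and 10.4%. The groups did not overlap, and the means of 14.3% ± 3.02 and 9.4999% ± 1.21 (SD, n = 3 each) differed by 4.82 percentage points (exact permutation p = 0.1). Almost all of this share was miR-451, at 13.8% ± 2.92 in the cold and 9.22% ± 1.15 at room temperature (exact permutation p = 0.1, n = 3 each). The mean share of miR-144 was 0.419% in the cold and 0.243% at room temperature (exact p = 0.1), and that of miR-486 0.0542% and 0.0392% (exact p = 0.3). A share of signal needs no scaling between arrays, but it is not a share of molecules.

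The ratio of one member to another is also free of scaling. With all kept probes averaged, none differed between groups beyond the spread over mice. miR-451 over miR-144 was 4.99, 5.04 and 5.01 on the log2 scale in cold mice 1 to 3, and 5.28, 5.40 and 4.93 in mice 4 to 6. The cold mice lay within the range of the others, with less spread (5.01 ± 0.0242 against 5.20 ± 0.245, SD, n = 3 each), and the difference was -0.19 (exact permutation p = 0.4). The cold minus room temperature difference was -0.18 for miR-486 over miR-451 (exact p = 0.4) and -0.37 for miR-486 over miR-144 (exact p = 0.2). Adjusted over the 3 ratios, each exact p was 0.4. These ratios depended on the choice of probe. With only the brightest probe of each miRNA, the difference was -0.54 for miR-451 over miR-144 (exact permutation p = 0.1, the smallest possible). For miR-486 over miR-451 it turned to 0.20 (exact p = 0.7).

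The signal of the members was set against miRNAs of other cells in the same array as a description. These ratios use log2 levels averaged over a miRNA's probes. The ratios to miR-126-3p given further above used the mean of the probes in units, so the 2 kinds differ in size. Over miR-142-3p, found in all white blood cell lineages, miR-451 was 2.18-fold higher in the cold than at room temperature, and over miR-223, a miRNA of neutrophils and macrophages, 2.04-fold. Over endothelial miR-126-3p it was 1.73-fold higher. In these 3 ratios the groups did not overlap. Over miR-16, abundant in red cells but made in most tissues, it was 1.36-fold higher, again without overlap. Over miR-92a, of which the same can be said, it was 1.08-fold, and the groups overlapped. The log2 ratio of miR-451 to miR-142-3p was 6.43, 5.69 and 5.41 in cold mice 1 to 3, against 4.68, 4.61 and 4.87 in mice 4 to 6. The scaled level of miR-142-3p was -2.37 in mouse 1 and between -1.07 and -0.88 in the others. Mouse 1 had the highest ratio to miR-142-3p for all 3 members.

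miR-144 gave the same pattern, with log2 differences of 1.32 over miR-142-3p, 1.22 over miR-223, 0.98 over miR-126-3p and 0.63 over miR-16, without overlap, and 0.30 over miR-92a, with overlap. For miR-486 the groups did not overlap over miR-142-3p (0.95), miR-223 (0.85) and miR-126-3p (0.61), and overlapped over miR-16 (0.26) and miR-92a (-0.07).

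The members varied together over the 6 mice. Scaled levels of miR-451 and miR-144 correlated with Pearson's r = 0.961 (exact permutation p = 0.00417, adjusted over 3 pairs 0.0125) and with Spearman's rho = 1 (exact p = 0.00278, the smallest that 6 mice allow, adjusted 0.00833). For miR-451 and miR-486, r was 0.892 (exact p = 0.0181, adjusted 0.0236), and for miR-144 and miR-486 it was 0.869 (exact p = 0.0236, adjusted 0.0236), with rho = 0.943 for both (exact p = 0.0167). All 3 share an array's scaling, and a difference between the groups adds to r. Deviations from the group means, which leave that difference out, gave r = 0.879 for miR-451 with miR-144, 0.950 for miR-451 with miR-486 and 0.894 for miR-144 with miR-486.

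Mouse 2 and mouse 5 were the extremes of miR-451 and miR-144. Without them r was 0.914 for miR-451 and miR-144 (exact permutation p = 0.0833, n = 4), 0.499 for miR-451 and miR-486 (exact p = 0.458) and 0.691 for miR-144 and miR-486 (exact p = 0.375). Over these 4 mice none of the 3 relations passed 0.05, so the pairs' relation was not shown without the extremes. Only few pairings exist for 4 mice, so the test could not show the absence of a relation either.

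**Figure D4:**
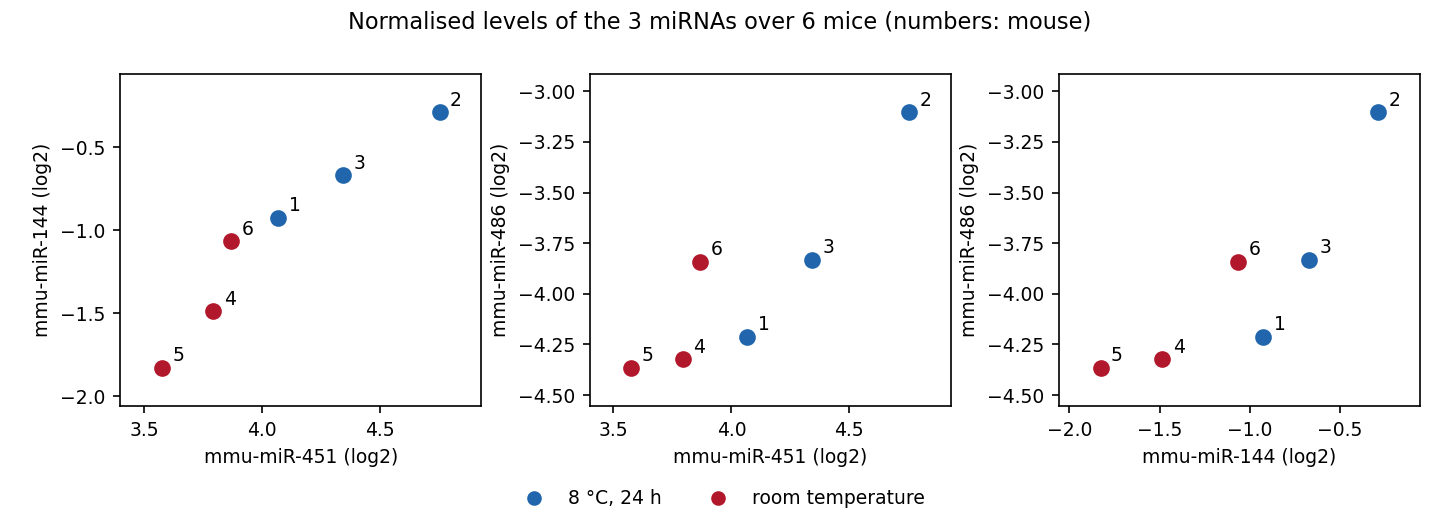
Scaled log2 levels of each pair of members plotted against each other, 1 point per mouse, coloured by group. miR-451 and miR-144 lie along one line from mouse 5 (3.58 and -1.83) to mouse 2 (4.75 and -0.29), and the pairs with miR-486 scatter more.

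Ranked by r over the 6 mice among the 188 other miRNAs tested, miR-144 was the miRNA most like miR-451. It was followed by miR-30c-1* (0.923) and by miR-378 (0.918), which lies in the gene Ppargc1b and has a role in brown fat. For miR-144 the order was miR-451, miR-378 (0.960) and miR-93 (0.898). The miRNAs most like miR-486 were miR-500 (0.946), miR-451 and miR-144. miR-486 stood 8th in likeness to miR-451 and 6th in likeness to miR-144. The median r over the 188 was 0.02 for miR-451, -0.06 for miR-144 and 0.08 for miR-486. Of the miRNAs named here, miR-30c-1*, miR-378 and miR-93 were called higher in the cold, so the group difference is part of their r.

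Lists of miRNAs that mark other cells were read beside the members, with differences on the same scaled log2 levels. Of 8 tested miRNAs that red cells hold but most cells make, 6 were higher and 2 lower, with a median difference of 0.14. Only miR-93 was called (0.62, limma adjusted p = 0.0222), and miR-92a differed by 0.53 (limma adjusted p = 0.0545). miR-363 of that list was not above background. Summed levels add the mean signals of each miRNA's probes in units, divided by the 75th percentile, and are not sums of the log2 levels. For the red cell list they were 3.27 to 4.27 over the cold mice and 2.97 to 3.104 over the others. For the 3 members they were 17.8 to 28.7 and 12.7 to 15.8.

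All 7 white blood cell miRNAs had lower means in the cold and 0 were called by limma, with differences from -0.55 to -0.02, a median of -0.38 and summed levels of 0.817 to 1.25 against 1.35 to 1.44. Both arms of endothelial miR-126 had a lower mean log2 level in the cold, with a median difference of -0.22. Their summed levels in units, 12.0 to 13.6 in the cold against 11.6 to 13.4, overlapped and were not lower in the cold. Of 6 striated muscle miRNAs 4 were tested, and miR-133a, miR-133b and miR-206 were called lower, with a list median of -1.92 and summed levels of 2.12 to 10.6 against 12.2 to 18.0. miR-133a differed by -1.88 (limma adjusted p = 0.0229). Muscle also makes miR-486, whose difference of 0.46 was not called (limma adjusted p = 0.308), and the part of muscle in its signal was not tested.

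Of 4 brown fat miRNAs, miR-378 (0.97) and miR-193b (0.64) were called higher, while miR-455 (0.13) and miR-365 (-0.07) were not called. The list median was 0.38, with summed levels of 10.2 to 12.9 against 7.91 to 9.57. miR-122, which marks liver, averaged 1.44 units in the cold, not well above background, and 87.2 units at room temperature, where the scaled log2 levels of mice 4 to 6 were -6.51, -1.74 and -3.56, with mouse 5 highest and mouse 4 near the floor of the scale. The part of these cell types in the members' difference was not tested. In these bulk samples, more red cells and more of a miRNA per cell cannot be told apart.

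**Figure D5:**
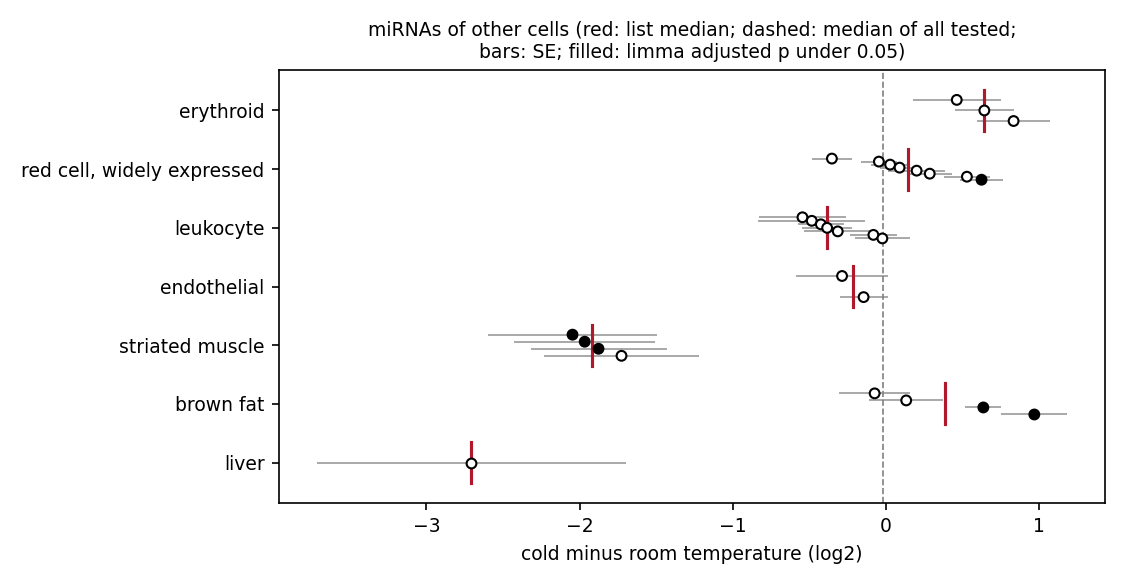
Cold minus room temperature difference (x axis, log2) of each tested miRNA, 1 point per miRNA, grouped by the cell type its list marks, with SE bars, filled where called, the list median as a red line and the median of all tested as a dashed one. The 3 erythroid members lie between 0.46 and 0.83, the 7 leukocyte miRNAs between -0.55 and -0.02, and the 4 striated muscle miRNAs between -2.05 and -1.73.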

How the data were processed

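Each deposited file holds one array's scanner output, with spot intensity in background-subtracted fluorescence units (gProcessedSignal). The software was Agilent Feature Extraction, version 10.7.3.1 per the file headers and version 9.5.3.1 per the submitters' processing notes. The authors' deposited value table held the same intensities.

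Control spots and spots marked as outliers, 2.09% to 2.63% of an array's miRNA spots, were dropped, and 0 spots were saturated. Spots of a probe were averaged. Probe signals were scaled to the array's 75th percentile, taken over the 267 of 1712 probes detected on all 8 arrays, floored at 0.01 and put on the log2 scale. Probes entered the test (329 did) if, on all arrays of one group or the other, over 0.5 of the spots had the software's well-above-background flag. A miRNA was the mean of its kept probes, and arrays of a mouse were averaged before the test. Cold was compared with room temperature by limma 3.58.1 in R 4.3.3, which was tested on simulated data. Single values were compared with exact 2-sided permutation tests over mice. The labels name no litters or cages, so p-values measure the spread between these mice. The number of arrays limits the precision.

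The members, the lists of marker miRNAs and the tests were chosen with earlier results of these data known. The miRNAs named are the members, the 3 most like each member by Pearson's r, the list members set beside them and the brightest miRNA other than miR-451. The alternatives were other scaling (all probes, quantile, none, 4 positive-control RNAs of the array, whose addition the labels do not describe), a normexp background (offset of 50), other probe summaries and filters, other uses of the repeat arrays, and leaving out each mouse. Position correction, the middle rows and the median of spots were chosen after the data were seen. The normexp setting used the spots' median signal, because the files hold no mean signal column.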

Additional observations from a re-analysis of the deposited data

How the results depend on the processing

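All 3 members kept a positive difference under all 20 alternatives run. miR-486 passed the threshold in 0 of them. With the normexp background the median of all miRNAs was 0.21. Relative to it the differences were 0.40 for miR-451, 0.54 for miR-144 and 0.22 for miR-486. miR-451 passed with the middle rows only (0.67, limma adjusted p = 0.0372), with every array and the mouse as a block (0.60, adjusted p = 0.0440) and, of the fits that leave out one mouse (0.46 to 0.80), without mouse 1. miR-144 passed with quantile normalisation (0.94, limma adjusted p = 0.0366), the brightest probe (1.03, 0.0255), the first array of each mouse (0.85, 0.0448), every array with the mouse as a block (0.80, 0.0369) and, of the fits that leave out one mouse (0.65 to 1.03), without mouse 1. The number of miRNAs called was 29 as reported, 13 with no scaling, 6 with the normexp background, 5 with no filter, 16 for probes detected on all arrays, 18 with position correction, and 8 (without mouse 6) to 33 (without mouse 1) leaving out one mouse. The calls higher in the cold were 16 of 29 as reported, 11 of 28 with the percentile over all probes, 0 of 13 with no scaling, 3 of 36 with the control RNAs, 22 of 43 with quantile normalisation, 13 of 28 with the median of spots and 15 of 23 with the middle rows. The cause was not tested. With the brightest probe the difference in the ratio of miR-486 to miR-451 turned from -0.18 to 0.20, and that of miR-451 to miR-144 went from -0.19 to -0.54. Between members, r was 0.88, 0.95 and 0.89 on deviations from group means and 0.91, 0.50 and 0.69 without mouse 2 and mouse 5. The difference in the members' share of signal ran from 3.26 to 6.27 percentage points, with exact permutation p between 0.1 and 0.3. No paired analysis was possible because the groups share no mouse numbers. The 2 single probes of miR-486 read 21.0 to 125.8 units per array, and the second of them was not above background on 1 array.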

Other observations

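Of the 29 miRNAs called as reported, 13 (7 higher and 6 lower in the cold) were also called when each spot was corrected for its position, an alternative chosen after the data were seen, which called 18 in all.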
